A study of Mus musculus with 74 samples.

Results

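Of 7 genes known from basal and immature medullary thymic epithelium, 6 were analysed in Aire-mutant mature medullary cells. The largest changes were those of Dcn on B6. Its transcript was 5.13-fold higher in Y86C homozygotes and 4.62-fold higher in C442G homozygotes than in their wild types. On NOD the largest change was in Ly6a, 1.96-fold lower in C313Y heterozygotes. The other genes did not follow Dcn in 1 direction. Itga6 rose in 3 B6 lines, Pdpn, Ly6a and Itgb4 fell in some groups, and Trp63 passed the test in none. The genes are Ccl21a, Trp63, Pdpn, Itga6, Itgb4, Ly6a and Dcn. They were chosen by symbol, as the rows of that name in the 6 count tables of the series. 6 of the 7 had a row in every table, among 17853 symbols found in at least 1 table and 14637 found in all 6, and all 6 passed the filter on low counts in every comparison. Ccl21a is not analysed here.

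The libraries came from mTEChi, medullary thymic epithelial cells (mTEC) with high MHC class II, sorted from mice of 4 to 7 weeks. The study compared Aire alleles on 2 strains, C57BL/6 (B6) and NOD. On B6 there were 3 wild-type, 5 Aire+/- and 4 Aire-/- libraries of the null line, 3 wild-type, 3 +/Y86C and 3 Y86C/Y86C, 3 wild-type, 2 +/C313X and 3 C313X/C313X, and 3 wild-type, 5 +/C442G and 6 C442G/C442G libraries. On NOD there were 3 wild-type, 3 +/V303M and 3 V303M/V303M libraries, 3 Aire+/- and 3 Aire-/- libraries, 5 wild-type and 4 +/C313Y libraries, and 3 wild-type and 3 libraries of C313Y over the null allele (-/C313Y). NOD Aire-/- was set against Aire+/-, and 2 of the 5 wild types set against +/C313Y are titled C313T. Nothing in the labels says that the libraries of a group came from separate mice, so the p-values measure the spread between these libraries, which may be technical. The gate for mTEChi selects against immature mTEC with low MHC class II, so the values describe transcripts in the mature population and in whatever else passed the gate. In bulk libraries of this kind, fewer cells of a type and less RNA per cell cannot be told apart.

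mTEC mature from cells with low MHC class II, which include progenitors and the cells that make the chemokine Ccl21a, to mTEChi, many of which make AIRE, the nuclear regulator that lets medullary cells transcribe genes otherwise restricted to peripheral tissues. Basal epithelial cells hold to the basement membrane through the integrin of the alpha 6 and beta 4 chains, encoded by Itga6 and Itgb4, and keep their identity through the transcription factor p63, encoded by Trp63. Pdpn encodes podoplanin, a mucin-like membrane glycoprotein, Ly6a encodes Sca-1, a GPI-anchored surface protein induced by interferons, and Dcn encodes decorin, a secreted small leucine-rich proteoglycan that binds collagen and is best known as a fibroblast product. On GRCm38, Trp63 is at chr16:25683763-25892102 on the plus strand, Itga6 at chr2:71745616-71858416 (plus), Itgb4 at chr11:115974709-116008412 (plus), Pdpn at chr4:143267431-143299564 (minus), Ly6a at chr15:74994877-74998031 (minus) and Dcn at chr10:97479609-97518143 (plus). All are protein-coding genes.

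Library totals ran from 1016619 to 7225403 counts with a median of 2675551.5, and the lowest count of any of the 6 genes in any library was 7. All 8 defining markers of mTEChi (Epcam, Krt8, Krt5, H2-Aa, Cd80, Cd86, Aire and Fezf2) were above 0 in every library. Aire itself, the targeted gene, was in no mutant group below its control: group means were 1685 to 2626 CPM (counts scaled to the same total in every library) in controls and 2057 to 4293 CPM in mutants. Markers of other cells moved both ways in Y86C/Y86C. There 49.6% of all tested genes were called in either direction (edgeR adjusted p under 0.05). Of the markers, 0 rose and 2 fell of 4 tested endothelial genes, and 2 rose and 4 fell of 8 thymocyte genes. Of 9 myeloid genes 4 rose and 3 fell, and of 6 cortical epithelial genes 3 rose and 2 fell. In C313X/C313X, with 23.1% of all genes called, most called markers of 3 lists were lower. There 0 rose and 3 fell of 5 endothelial genes, 0 rose and 4 fell of 11 thymocyte genes, and 1 rose and 6 fell of 10 myeloid genes. The summed level of the cortical epithelial list was 6965 to 8035 CPM in Y86C/Y86C and 3966 to 4354 CPM in wild types, 5262 to 6447 CPM in C442G/C442G and 3465 to 4324 CPM in wild types, and 4624 to 5653 CPM in B6 Aire-/- and 2820 to 2939 CPM in wild types. The part of these markers in the results below was not tested. A tag at the 3' end of the transcript that lies outside a deleted or altered part does not check the genotype labels.

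**Figure D1:**
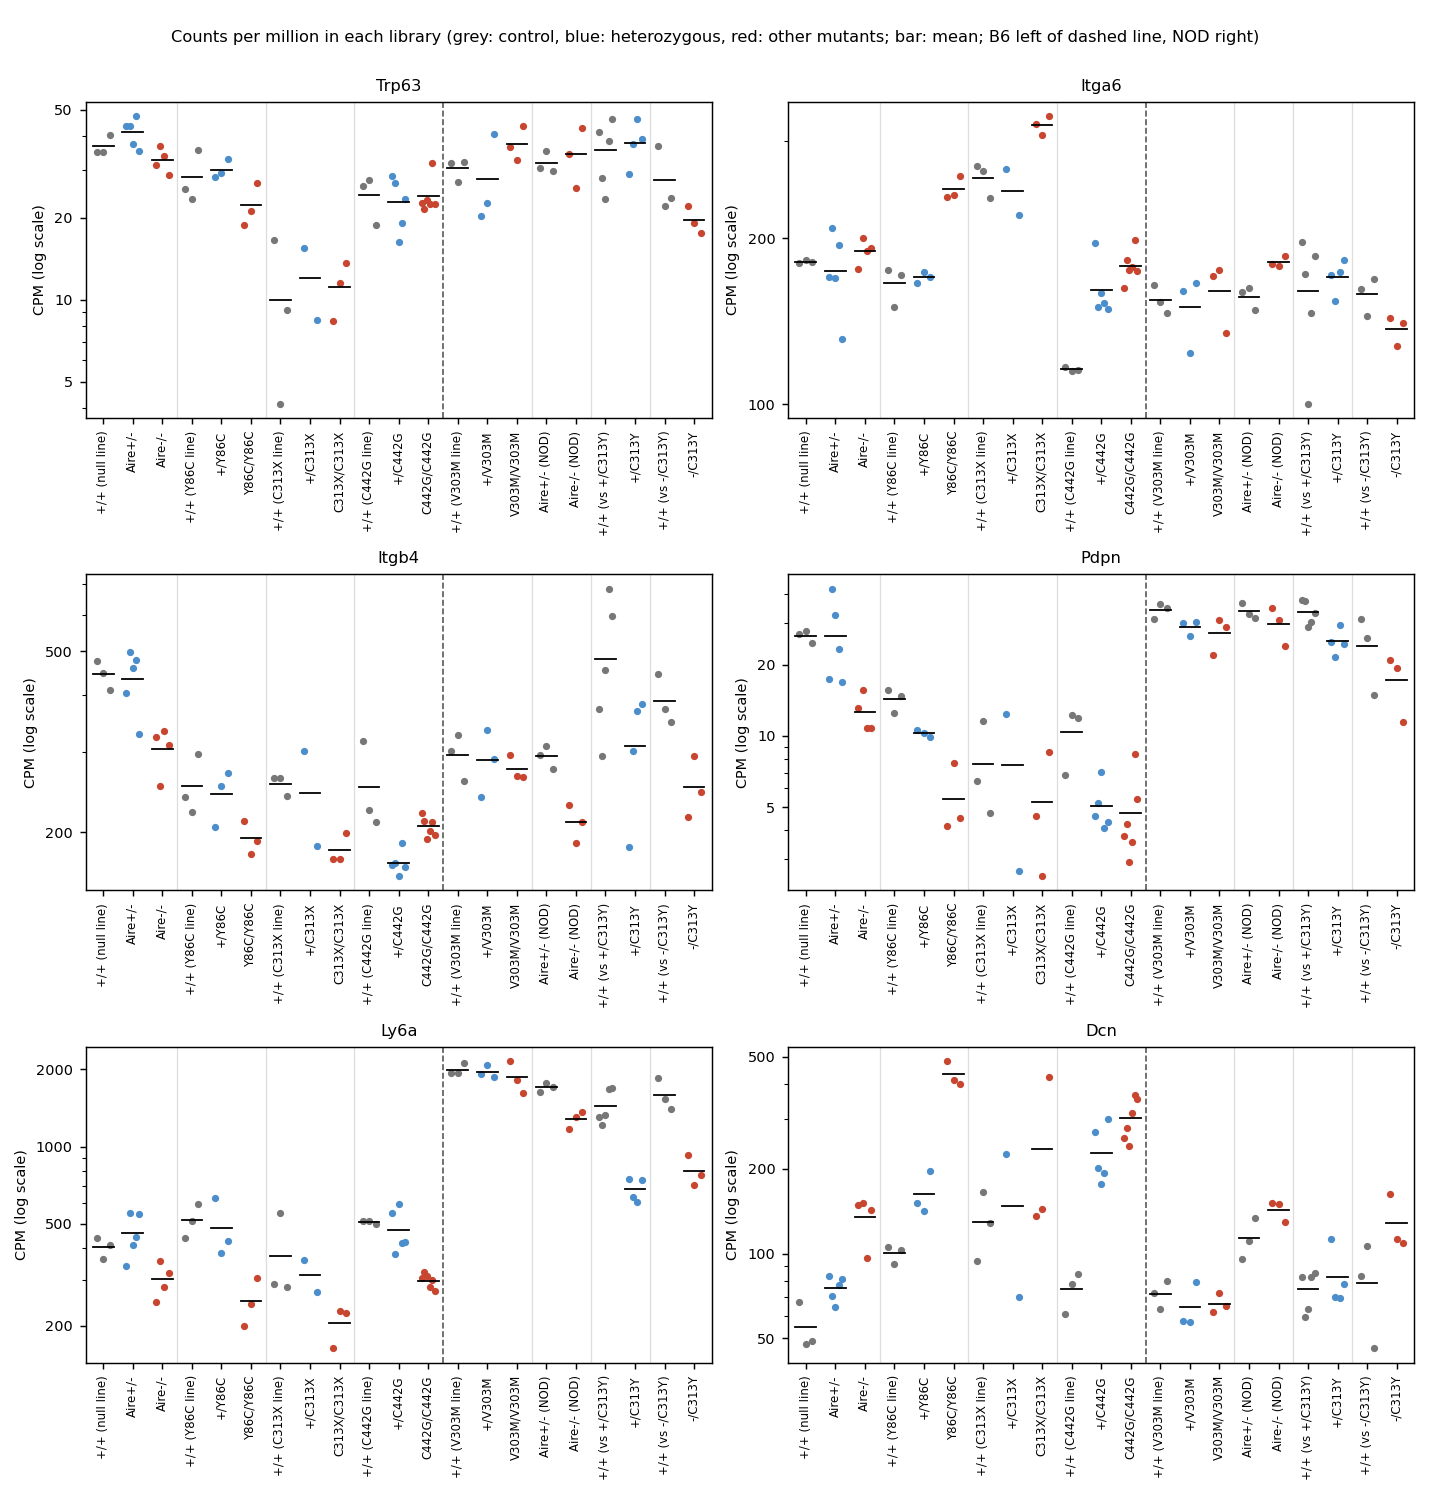
CPM of each of the 6 genes in each library (points, log scale) by group, with a bar at the group mean, controls in grey, heterozygotes in blue and other mutants in red, B6 left of the dashed line. Dcn reaches 400 to 483 CPM in the 3 Y86C homozygotes, and Ly6a is higher in the NOD groups than in the B6 groups.

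A gene was called at an edgeR adjusted p under 0.05 over all tested genes of its table, and each count of the 6 genes stands beside the share of all tested genes called in that comparison. In B6 Aire-/- 3 of the 6 genes were called (36.6% of all genes), in Y86C/Y86C 4 (49.6%), in C313X/C313X 1 (23.1%) and in C442G/C442G 4 (42.6%). Among B6 heterozygotes, 4 were called in +/C442G (26.5%) and 1 in +/Y86C (3.37%). With edgeR, none was called in Aire+/- (0.480% of all genes) or +/C313X (0% of all genes), where 1 gene, Dcn, and 0 genes had an unadjusted p under 0.05, and DESeq2 called 0 in each. On NOD, 1 was called in +/C313Y (17.4%) and 2 in -/C313Y (22.7%). edgeR called none in +/V303M (0%), V303M/V303M (0.0657%) or NOD Aire-/- (13.3%), where 0, 0 and 1 gene (Itga6) had an unadjusted p under 0.05, and DESeq2 called 0 in each. With 6 genes, these counts say nothing particular about the set, and what follows is about single genes. The median log2 change of the 6 genes in the homozygotes was -0.20 in Aire-/-, -0.10 in Y86C/Y86C, 0.11 in C313X/C313X and 0.06 in C442G/C442G, beside -0.0064, -0.034, -0.018 and 0.0024 over all tested genes.

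**Figure D2:**
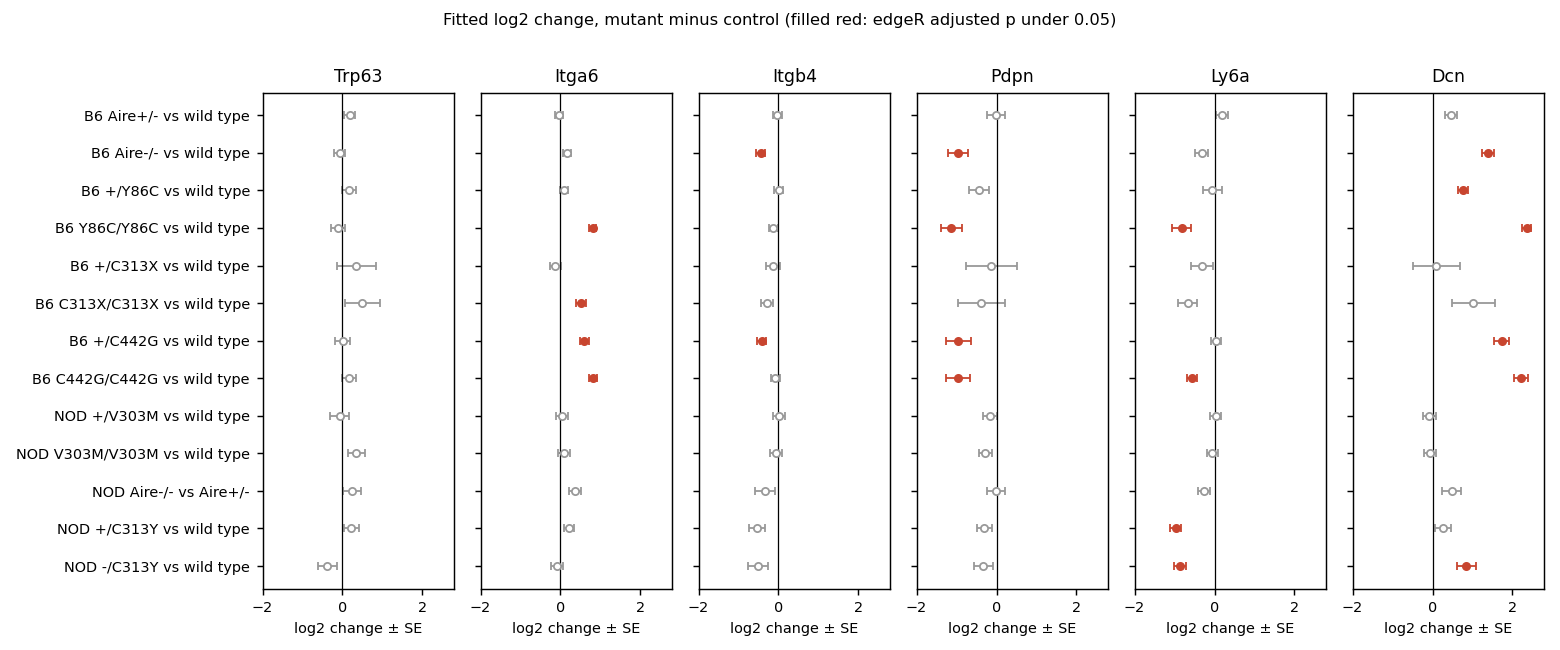
Fitted log2 change ± SE (horizontal axis) of each of the 6 genes in each of 13 comparisons (rows), with called changes in filled red. Dcn lies right of 0 in 11 comparisons and is called in 6 of them, at 0.77 to 2.36, and Pdpn lies left of 0 in all 13.

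Trp63 encodes p63, and its transcript passed the test in none of the 13 comparisons. In the B6 null line its level was 35.01, 34.9 and 40.2 CPM in wild types and 31.2, 36.9, 33.9 and 28.7 CPM in Aire-/-. In the Y86C line it was 25.6, 23.5 and 35.4 CPM in wild types and 18.8, 21.2 and 26.9 CPM in homozygotes. The groups overlapped in each pair. The C442G libraries of all genotypes ran from 16.4 to 31.7 CPM. On NOD, V303M homozygotes at 36.5, 32.7 and 43.4 CPM lay above their wild types at 32.0, 27.1 and 32.2 CPM (0.34 ± 0.22, adjusted p = 0.951), and -/C313Y libraries at 22.1, 19.2 and 17.6 CPM overlapped theirs at 36.7, 22.1 and 23.8 CPM. Over the 13 comparisons the log2 change ran from -0.38 in -/C313Y to 0.50 in C313X/C313X, where the wild types spread from 4.15 to 16.6 CPM, and the lowest edgeR adjusted p was 0.289. Change was not detectable for Trp63 at this depth and group size. A missed threshold does not show equal levels.

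Most genes of a list that basal cells express with p63 fell in 3 B6 homozygous groups, while Trp63 was called in none of the 13 comparisons. Of 13 tested basal keratin and p63-programme genes, 11 fell and 0 rose in Aire-/-, 11 fell and 0 rose in Y86C/Y86C, 3 fell and 0 rose in C313X/C313X, and 11 fell and 0 rose in C442G/C442G. Of all genes 36.6%, 49.6%, 23.1% and 42.6% were called in these groups, in either direction. In Y86C/Y86C the median log2 change of that list was -0.90, beside -0.034 over all genes. Krt15, a keratin of basal epithelium, changed by -3.15 ± 0.32 (log2, SE), Krt5, the basal keratin that also marks mTEC, by -2.19 ± 0.22, Igfbp5, a secreted binding protein of insulin-like growth factors, by -2.18 ± 0.22, and Fgfr2, a receptor of fibroblast growth factors, by -1.70 ± 0.30. In C442G/C442G Krt15 changed by -2.52 ± 0.27 and Perp, a desmosomal p63 target, by -1.26 ± 0.12. Heterozygous +/C442G had 7 of 13 lower and 0 higher (26.5% of all genes called), and Aire+/-, +/Y86C and +/C313X had 0 of 13 called. On NOD, 0 of 13 were called in Aire-/- and in +/C313Y, and 4 fell and 1 rose in -/C313Y (22.7% of all genes called). The list's members were chosen with earlier results of these data known.

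Itga6 encodes the alpha 6 chain of the laminin receptor, and it rose in 4 of 13 comparisons, all of them of B6 point mutants or the C313X line. Its level in the Y86C line was 175, 150 and 171 CPM in wild types, 166, 173 and 170 CPM in heterozygotes and 237, 240 and 259 CPM in homozygotes. All 3 homozygous libraries lay above all wild-type and heterozygous ones. The log2 change in homozygotes was 0.81 ± 0.09 (edgeR adjusted p = 8.03e-09, higher in 3 of 3 libraries), a fold of 1.75. In heterozygotes it was 0.09 ± 0.09 (adjusted p = 0.702).

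In the C442G line Itga6 was higher in heterozygotes too. The wild types were at 117, 115 and 116 CPM and the heterozygotes at 196, 150, 159, 153 and 149 CPM. The 6 homozygotes ran from 163 to 198 CPM with a median of 176 CPM. No heterozygous or homozygous library overlapped the wild types. The log2 change was 0.60 ± 0.11 in heterozygotes (adjusted p = 1.21e-04) and 0.82 ± 0.11 in homozygotes (adjusted p = 2.03e-07). The mean of these wild types, 116 CPM, was the lowest of the control group means, the others being at 155 to 257 CPM, and lines were counted in separate tables.

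In the C313X line Itga6 was at 270, 264 and 236 CPM in wild types, 267 and 220 CPM in heterozygotes and 322, 308 and 333 CPM in homozygotes. The homozygotes lay above the other groups. The log2 change in homozygotes was 0.53 ± 0.13 (adjusted p = 0.0114), and without homozygote 1 the adjusted p was 0.0521. With scaling by library size alone it was 0.0899.

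Itga6 was not called in the B6 null line. It was at 180, 182 and 181 CPM in wild types and 176, 200, 190 and 192 CPM in Aire-/-, overlapping, with a log2 change of 0.16 ± 0.10 (adjusted p = 0.227). In a joint fit of the 4 B6 tables, the Y86C/Y86C effect on Itga6 exceeded the Aire-/- effect by 0.76 ± 0.15 (log2, edgeR adjusted p = 0.00412), where 2.0% of all genes were called. The C442G/C442G effect exceeded it by 0.70 ± 0.14 (adjusted p = 0.00328, with 2.91% of all genes called). Leaving out 1 library at a time, the differences ran from 0.71 to 0.79 and from 0.63 to 0.73, and the first was at an adjusted p of 0.0714 with scaling by library size alone. The C313X/C313X effect exceeded the Aire-/- effect by 0.45 ± 0.15, which did not pass (adjusted p = 0.086, with 2.69% of all genes called), while DESeq2 gave 0.0497. The Y86C/Y86C and C442G/C442G effects differed by 0.06 ± 0.15 (adjusted p = 0.953, with 0.0137% of all genes called). These differences share the null-line libraries, and the line and its table cannot be told apart from the allele. Of the other 5 genes, none was called in any of these differences. Without C313X wild type 2, Trp63 was called in the C313X/C313X minus Aire-/- difference (1.09, adjusted p = 0.0482).

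On NOD, Itga6 was at 160, 163 and 148 CPM in Aire+/- and 180, 178 and 186 CPM in Aire-/-. The groups did not overlap, and the log2 change of 0.36 ± 0.15 did not pass in the fit of the whole table (adjusted p = 0.134). In a fit of these 2 groups alone it passed (adjusted p = 0.0165). In +/C313Y the change was 0.21 ± 0.13 and in -/C313Y -0.09 ± 0.15, neither called.

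Itgb4 encodes the beta 4 chain, which pairs with alpha 6. Both transcripts were called only in +/C442G, in opposite directions. Itgb4 fell in Aire-/-: it was at 475, 448 and 412 CPM in wild types and 324, 253, 333 and 311 CPM in Aire-/-, without overlap, a log2 change of -0.44 ± 0.11 (edgeR adjusted p = 0.00441). Heterozygous Aire+/- libraries ran from 330 to 499 CPM and were not called (-0.03 ± 0.11, adjusted p = 0.971). In +/C442G Itgb4 was at 170, 171, 161, 190 and 168 CPM, below the wild types at 318, 224 and 211 CPM, with a change of -0.42 ± 0.12 (adjusted p = 0.00724). Wild type 86 decided that value: without it the change was -0.19 (adjusted p = 0.252).

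In the homozygotes in which Itga6 rose, Itgb4 was not called. It was at 239, 222 and 297 CPM in Y86C wild types and 212, 180 and 192 CPM in Y86C/Y86C, without overlap (-0.13 ± 0.11, adjusted p = 0.373). In C442G/C442G it ran from 193 to 221 CPM with a median of 206 CPM (-0.09 ± 0.11, adjusted p = 0.57), and in C313X/C313X it was at 175, 175 and 199 CPM beside 264, 263 and 240 CPM in wild types (-0.28 ± 0.16, adjusted p = 0.228). The fit corrects for factors between libraries, so its log2 change need not equal the ratio of CPM means. With scaling by library size alone, which lowered the median of all genes by 0.25 in Y86C/Y86C and 0.20 in C442G/C442G, Itgb4 was called lower in both (-0.38, adjusted p = 0.00453, and -0.29, adjusted p = 0.036). On NOD the changes were -0.54 ± 0.21 in +/C313Y (adjusted p = 0.0771, and 0.0432 by DESeq2) and -0.51 ± 0.25 in -/C313Y (adjusted p = 0.16). In -/C313Y it passed with only the compared groups (0.0122) and against all 8 wild types (0.0393), and in +/C313Y with scaling by library size alone (0.035) and without both libraries titled C313T (-0.83, adjusted p = 9.05e-04). NOD Aire-/- at 230.1, 190.1 and 211 CPM lay below Aire+/- at 296, 310 and 276 CPM (-0.33 ± 0.25, adjusted p = 0.493), and passed with only the compared groups (0.0142) and against all 8 wild types (-1.02, adjusted p = 7.77e-04). Those 8 wild types span both batches inferred from the authors' batch-corrected values. Contrasts with them therefore mix genotype with batch. The 5 wild types of the C313Y line were placed in the same inferred batch as NOD Aire-/-. Against these 5 alone, Itgb4 in NOD Aire-/- changed by -1.07 (edgeR adjusted p = 0.00114), with a control chosen after seeing the data.

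The count of Itga6 per count of Itgb4 within a library does not depend on the scaling. The ratio itself carries no meaning for the protein chains, since tags of different genes are not captured alike, and the measure was chosen after seeing the data. It was 0.409 ± 0.0303 (SD, n = 3) in B6 null-line wild types and 0.629 ± 0.111 (n = 4) in Aire-/-. In the Y86C line it was 0.663 ± 0.0797 (n = 3) in wild types and 1.27 ± 0.13 (n = 3) in homozygotes. In the C313X line it was 1.0 ± 0.0207 (n = 3) in wild types and 1.76 ± 0.0857 (n = 3) in homozygotes. In the C442G line it was 0.476 ± 0.0956 (n = 3) in wild types, 0.942 ± 0.136 (n = 5) in heterozygotes and 0.867 ± 0.0695 (n = 6) in homozygotes. On NOD it was 0.533 ± 0.00786 (n = 3) in Aire+/- and 0.865 ± 0.0782 (n = 3) in Aire-/-. In each of these 6 comparisons the groups did not overlap. The two-sided exact permutation p was 0.0286 for Aire-/-, 0.0179 for +/C442G, 0.0119 for C442G/C442G and 0.1 for the 3 others, in each case the smallest that the group sizes allow. Adjusted over the 13 comparisons these values were 0.116 to 0.217, so none passed. The ratio overlapped between groups in the other 7 comparisons.

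**Figure D3:**
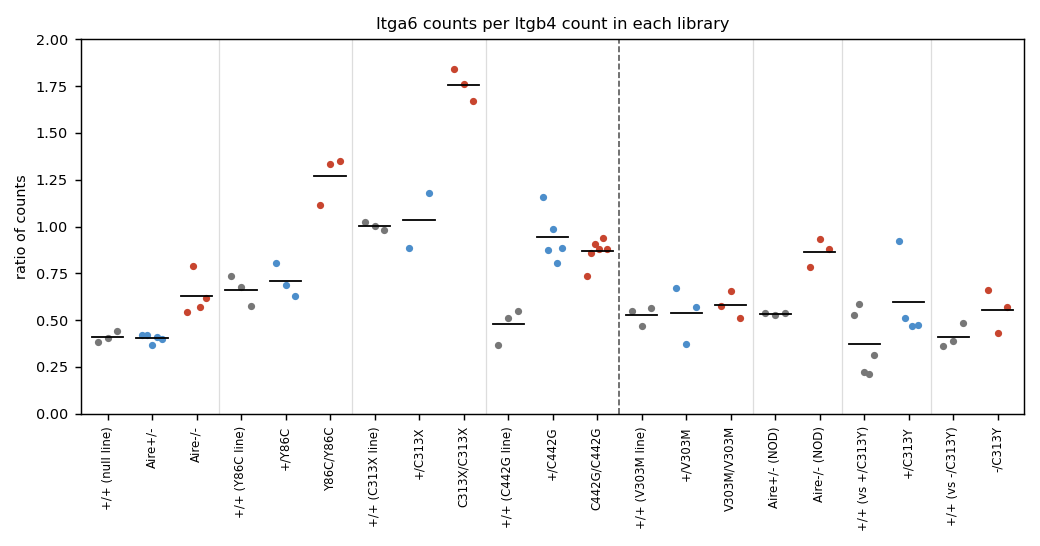
Ratio of Itga6 to Itgb4 counts (vertical axis, linear, from 0) in each library by group, with a bar at the group mean, B6 groups left of the dashed line and NOD groups right of it. Homozygous libraries of the 4 B6 lines lie above all wild types of their own line, and the 2 V303M mutant groups overlap their wild types.

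Other genes of the hemidesmosome, laminin and basement membrane moved in both directions. Of 12 tested, 1 rose and 6 fell in Aire-/-, 2 rose and 6 fell in Y86C/Y86C, 1 rose and 4 fell in C313X/C313X, and 2 rose and 4 fell in C442G/C442G, where 36.6%, 49.6%, 23.1% and 42.6% of all genes were called. Col17a1, the transmembrane collagen of hemidesmosomes, rose with Itga6, by 1.06 ± 0.19 in Y86C/Y86C, 0.76 ± 0.24 in C313X/C313X and 0.85 ± 0.17 in C442G/C442G. Lamb3, a chain of the laminin that this integrin binds, fell by 1.81 ± 0.23, 1.45 ± 0.28 and 1.32 ± 0.19 on the log2 scale in the same 3 groups and by 1.45 ± 0.24 in Aire-/-. Col4a2, a collagen of the basement membrane, fell by 0.94 ± 0.13 in Y86C/Y86C and 0.98 ± 0.12 in Aire-/-. In -/C313Y 5 of 12 fell, among them Lama5 by 1.34 ± 0.28, and in NOD Aire-/- 0 of 12 were called.

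Pdpn encodes podoplanin. It fell in 4 of 13 comparisons, all on B6, and its fitted change was below 0 in all 13. Its levels were low, down to 2.56 CPM in a C313X homozygote, which limits the precision. In the null line it was at 27.0, 27.8 and 24.7 CPM in wild types and 13.2, 15.6, 10.8 and 10.8 CPM in Aire-/-. The groups did not overlap, and the log2 change was -0.97 ± 0.25 (edgeR adjusted p = 0.00313), which is 1.96-fold lower. Heterozygous Aire+/- spread from 16.9 to 42.1 CPM and was not called (-0.02 ± 0.23, adjusted p = 0.991).

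In the Y86C line Pdpn was at 15.7, 12.6 and 14.8 CPM in wild types, 10.6, 10.3 and 9.93 CPM in heterozygotes and 4.15, 7.64 and 4.49 CPM in homozygotes. The 3 groups did not overlap. The log2 change was -1.13 ± 0.27 in homozygotes (adjusted p = 7.15e-04) and -0.43 ± 0.25 in heterozygotes (adjusted p = 0.418). In the C442G line the wild types were at 6.85, 12.3 and 11.96 CPM and the heterozygotes at 4.58, 5.18, 7.06, 4.06 and 4.31 CPM. The 6 homozygotes ran from 2.93 to 8.42 CPM with a median of 4.00 CPM. Both mutant groups overlapped the lowest wild type. The changes were -0.95 ± 0.31 (adjusted p = 0.0219) and -0.96 ± 0.30 (adjusted p = 0.0092). These C442G calls rest on few libraries: without wild type 88 the adjusted p was 0.13 in heterozygotes and 0.0889 in homozygotes, and in heterozygotes it was 0.0786 without wild type 89 and 0.0563 without heterozygote 87.

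On NOD no Pdpn change was called. V303M homozygotes at 22.1, 30.9 and 28.8 CPM and heterozygotes at 30.1, 26.6 and 30.3 CPM lay below their wild types at 31.3, 36.3 and 34.9 CPM, with changes of -0.28 ± 0.17 and -0.16 ± 0.18 (edgeR adjusted p = 0.951 and 1). NOD Aire-/- at 34.7, 30.8 and 24.1 CPM overlapped Aire+/- at 36.4, 33.0 and 31.7 CPM (-0.01 ± 0.22, adjusted p = 0.988). The effect of Aire-/- against Aire+/- on Pdpn was 0.95 ± 0.33 lower (log2) on B6 than on NOD, which did not pass (adjusted p = 0.178, with 1.04% of all genes called). In +/C313Y and -/C313Y the changes were -0.31 ± 0.19 and -0.33 ± 0.23.

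Ly6a encodes Sca-1, and it fell in both C313Y groups on NOD and in 2 homozygous groups on B6. NOD control groups had means of 1444 to 1998 CPM and B6 wild types of 374 to 518 CPM. Strain and table cannot be told apart in that contrast. In the C313Y line the 5 wild types ran over 1301, 1217, 1332, 1676 and 1692 CPM, and +/C313Y libraries were at 748, 636, 607 and 742 CPM. All 4 heterozygotes lay below all 5 wild types, with a log2 change of -0.97 ± 0.13 (edgeR adjusted p = 3.1e-06), which is 1.96-fold lower. C313Y over the null allele gave 930, 706 and 775 CPM beside 1850, 1529 and 1400 CPM, also without overlap (-0.86 ± 0.16, adjusted p = 1.59e-04). The 2 effects differed by 0.11 ± 0.20 (adjusted p = 0.893, with 0.427% of all genes called).

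On B6, C442G wild types were at 512, 513 and 499 CPM for Ly6a and heterozygotes at 550, 382, 594, 420 and 424 CPM. The 6 homozygotes ran from 272 to 325 CPM with a median of 302.99 CPM, below every wild type and heterozygote. The change was -0.57 ± 0.12 in homozygotes (adjusted p = 2.48e-04) and 0.03 ± 0.13 in heterozygotes (adjusted p = 0.893). In the Y86C line wild types were at 441, 514 and 599 CPM, heterozygotes at 630, 385 and 428.8 CPM and homozygotes at 199, 243 and 306 CPM. The homozygotes lay below both other groups, with a change of -0.82 ± 0.24 (adjusted p = 0.0268). That call was lost without wild type 1 (adjusted p = 0.0748), wild type 3 (0.0802), homozygote 4 (0.0774) or homozygote 5 (0.0749).

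Aire-null groups had lower Ly6a values that were not called in the planned comparisons. On B6, Aire-/- libraries at 248, 357.5, 284 and 322 CPM lay below wild types at 437.9, 365 and 412 CPM (-0.32 ± 0.16, adjusted p = 0.147), and passed only in a fit of these groups alone (0.00736). Against B6 Aire+/-, a comparison added after seeing the data, Ly6a was called (-0.51 ± 0.14, edgeR adjusted p = 0.0138). On NOD, Aire-/- at 1166, 1300 and 1364 CPM lay below Aire+/- at 1639, 1769 and 1710 CPM (-0.27 ± 0.16, adjusted p = 0.327, and 0.0462 with these groups alone). C313X homozygotes at 163, 227 and 224 CPM lay below wild types at 291, 549 and 283 CPM (-0.67 ± 0.25, adjusted p = 0.0746). It passed with scaling by library size alone (0.0398), without wild type 2 (0.0401) and without wild type 7 (0.0468). Both V303M groups overlapped their wild types.

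Interferon-stimulated genes, the class to which Ly6a is known to belong, fell in the same groups and in others. Of 18 tested, 15 fell and 0 rose in +/C313Y, 14 fell and 1 rose in -/C313Y, 13 fell and 2 rose in each of Y86C/Y86C and C442G/C442G, 12 fell and 1 rose in B6 Aire-/-, 10 fell and 3 rose in +/C442G, 9 fell and 0 rose in NOD Aire-/- and 7 fell and 0 rose in C313X/C313X. The shares of all genes called in these groups were 17.4%, 22.7%, 49.6%, 42.6%, 36.6%, 26.5%, 13.3% and 23.1%. Their median log2 change was -0.71 in +/C313Y and -1.13 in -/C313Y, beside 0.016 and -0.027 over all genes. Irf7, a transcription factor of the interferon response, changed by -1.80 ± 0.30 in +/C313Y, and Isg15, a ubiquitin-like protein, by -1.96 ± 0.17 in -/C313Y. The summed level of the 18 genes was 3131 to 5220 CPM in wild types against 1948 to 2522 CPM in +/C313Y, and 4293 to 5337 CPM against 1847 to 2110 CPM for -/C313Y. It was 2901 to 2962 CPM in B6 wild types and 1553 to 1732 CPM in Aire-/-, where Ly6a was not called against wild types. In +/C442G it was 1454 to 1811 CPM beside 2156 to 2267 CPM in wild types, with Ly6a at 0.03. The part of the interferon-stimulated genes' level in the Ly6a values was not tested.

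Other Ly6 genes, a family of small GPI-anchored proteins, also fell on B6. Of 10 tested, Ly6a included, 9 fell in each of Y86C/Y86C and C442G/C442G, 6 in C313X/C313X and 4 in Aire-/-, with 0 rising in these 4 groups, and in +/C442G 7 fell and 1 rose. Of all genes 49.6%, 42.6%, 23.1%, 36.6% and 26.5% were called in these groups. Ly6c1 changed by -5.95 ± 0.32 in Y86C/Y86C and by -4.27 ± 0.29 in C442G/C442G, and Ly6c2 by -4.40 ± 0.22 and -4.85 ± 0.26. Near-identical family members can share reads, so the split between Ly6c1 and Ly6c2 is uncertain. On NOD, 3 fell and 0 rose in Aire-/-, 3 fell and 1 rose in +/C313Y and 4 fell and 1 rose in -/C313Y, the riser in both C313Y groups being Ly6g6c (0.99 ± 0.29 and 1.34 ± 0.35).

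**Figure D4:**
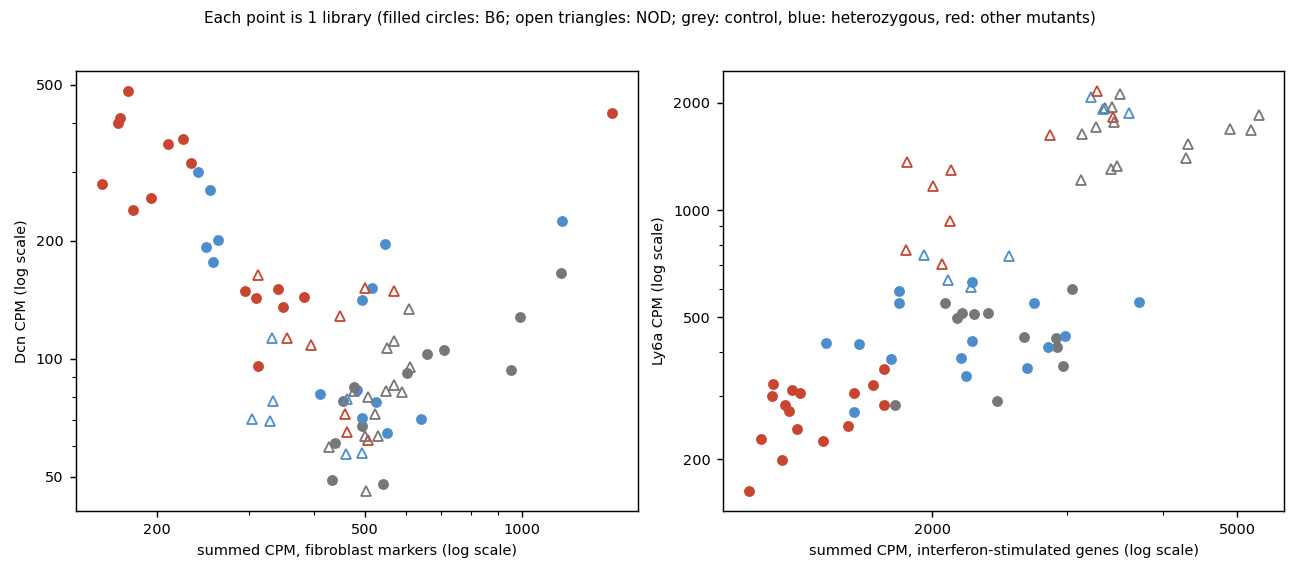
Left, Dcn CPM against the summed CPM of fibroblast markers, and right, Ly6a CPM against the summed CPM of interferon-stimulated genes, 1 point per library on log axes (filled circles B6, open triangles NOD, grey controls, blue heterozygotes, red other mutants). The 3 Y86C homozygotes combine 400 to 483 CPM of Dcn with fibroblast sums of 169 to 176 CPM, and the red point at a sum of 1487 CPM is C313X homozygote 14.

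Dcn encodes decorin and rose in 6 comparisons, 5 on B6 and 1 on NOD. In the Y86C line it was at 105, 91.97 and 103 CPM in wild types, 151, 141 and 196 CPM in heterozygotes and 482.5, 413 and 400.1 CPM in homozygotes. The 3 groups were fully apart. The log2 change was 0.77 ± 0.12 in heterozygotes (edgeR adjusted p = 3.39e-04) and 2.36 ± 0.12 in homozygotes (adjusted p = 1.66e-15).

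In the C442G line Dcn was at 61.1, 77.9 and 84.8 CPM in wild types and 269, 201, 176, 193 and 299 CPM in heterozygotes. Homozygotes ran from 240 to 364 CPM with a median of 297 CPM. Every mutant library lay above every wild type, and heterozygotes overlapped homozygotes. The change was 1.73 ± 0.18 in heterozygotes (adjusted p = 1.71e-07), a fold of 3.32, and 2.21 ± 0.18 in homozygotes (adjusted p = 4.28e-10).

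In the null line Dcn was at 67.5, 47.9 and 48.9 CPM in wild types and 149, 151, 96.04 and 143 CPM in Aire-/-, without overlap (1.39 ± 0.15, adjusted p = 1.61e-07, a fold of 2.61). The 5 Aire+/- libraries, at 83.04, 70.8, 64.8, 77.4 and 81.5 CPM, overlapped the wild types (0.46 ± 0.15, adjusted p = 0.263). The larger changes in Y86C/Y86C and C442G/C442G were not called different from that in Aire-/-: the differences were 1.08 ± 0.45 (adjusted p = 0.224) and 0.87 ± 0.43 (adjusted p = 0.313). That joint fit uses 1 estimate of the spread per gene for all B6 tables, the C313X table included, where the SE of Dcn was 0.53. In the separate fits the SE was 0.12 in Y86C/Y86C, 0.18 in C442G/C442G and 0.15 in Aire-/-. The missed threshold does not show equal changes.

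In the C313X line, where Dcn was not called, libraries of 1 genotype spread widely. Dcn was at 93.8, 165 and 128 CPM in wild types, 225 and 70.2 CPM in heterozygotes and 135, 144 and 424 CPM in homozygotes (1.02 ± 0.53, adjusted p = 0.214). The library at 424 CPM, homozygote 14, also had a fibroblast marker sum of 1487 CPM, against 349 and 384 CPM in the other homozygotes. That sum was 955 to 1185 CPM in wild types, whose Dcn was 93.8 to 165 CPM, and 641 to 1195 CPM in heterozygotes. The part of fibroblast markers in these Dcn values was not tested. Without homozygote 14 the change was 0.33 (adjusted p = 0.595), an alternative chosen after seeing the data.

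On NOD, Dcn was called in the main fits only in -/C313Y. In -/C313Y it was at 163, 113 and 109 CPM beside 82.9, 107 and 46.1 CPM in wild types, without overlap (0.85 ± 0.24, adjusted p = 0.0119). The call was lost without wild type 3 (0.56, adjusted p = 0.0961) or without -/C313Y library 1 (0.63, adjusted p = 0.102). Aire-/- at 151, 149 and 129 CPM overlapped Aire+/- at 95.5, 111 and 134 CPM (0.49 ± 0.24, adjusted p = 0.22). In a fit of these 2 groups alone it was called (0.47, adjusted p = 0.00694). Against the 5 wild types of the C313Y line the same Aire-/- libraries gave 1.08 (adjusted p = 4.1e-04). A clustering of the authors' batch-corrected values placed those wild types in the same inferred batch as these libraries. That control was chosen after seeing the data. The effect of Aire-/- against Aire+/- on Dcn was 0.44 ± 0.30 higher (log2) on B6 than on NOD. This difference did not pass (edgeR adjusted p = 0.663, with 1.04% of all genes called). +/C313Y and both V303M groups overlapped their wild types, with changes of 0.26 ± 0.20, -0.09 ± 0.16 and -0.07 ± 0.16.

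The summed level of fibroblast markers was lower in the groups in which Dcn rose, and also in groups in which Dcn was not called. The summed level of the 12-gene list, of which 11 had a row in the Y86C and C442G tables, was 603 to 709 CPM in Y86C wild types, 494 to 547 CPM in heterozygotes and 169 to 176 CPM in homozygotes. It was 437.96 to 476.5 CPM in C442G wild types, 240 to 262 CPM in heterozygotes and 157 to 233 CPM in homozygotes, and 432.2 to 541 CPM in null-line wild types and 296 to 341 CPM in Aire-/-. At most 2 genes of the list were at 0 in any library. Of those tested, 8 of 9 fell and 0 rose in Y86C/Y86C, 5 of 10 fell and 2 rose in C442G/C442G, and 4 of 10 fell and 2 rose in Aire-/-, with 49.6%, 42.6% and 36.6% of all genes called. Col1a1, the main collagen of fibroblasts, changed by -5.48 ± 0.27 in Y86C/Y86C and -4.13 ± 0.24 in C442G/C442G. Lum, encoding lumican, rose in C442G/C442G (1.79 ± 0.35) and Aire-/- (1.35 ± 0.51). In -/C313Y the sum was 312 to 394 CPM beside 477 to 553 CPM in wild types, with 3 of 11 lower and 1 higher.

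Other small leucine-rich proteoglycans moved both ways. With Dcn counted, 2 of 6 rose and 4 fell in Y86C/Y86C, 3 of 8 rose and 4 fell in C442G/C442G, 3 of 7 rose and 2 fell in Aire-/-, and 2 of 9 rose and 4 fell in -/C313Y, with 49.6%, 42.6%, 36.6% and 22.7% of all genes called. Aspn, encoding asporin, changed by -7.31 ± 0.48 in Y86C/Y86C and -5.02 ± 0.63 in C442G/C442G, and Bgn, encoding biglycan, by -3.98 ± 0.29 and -3.59 ± 0.40. Epyc, encoding epiphycan, changed by 2.36 ± 0.23 in C442G/C442G, close in size to the 2.21 ± 0.18 of Dcn.

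Of the chemokine axis of Ccl21a, the receptor gene Ccr7 and the second ligand gene Ccl19 were tested. Ccr7 rose by 0.73 ± 0.12 (log2) in B6 Aire-/-, 0.39 ± 0.10 in +/Y86C, 1.75 ± 0.10 in Y86C/Y86C, 0.88 ± 0.14 in +/C442G, 1.40 ± 0.13 in C442G/C442G and 1.0 ± 0.26 in -/C313Y. Ccl19 rose by 0.44 ± 0.16 in +/C442G and fell by 0.63 ± 0.21 in +/C313Y. Genes of mature mTEC, a list of 18 with MHC class II and costimulatory genes, moved mostly upward on B6: 16 rose and 1 fell in Aire-/- and in Y86C/Y86C (36.6% and 49.6% of all genes called), 14 rose and 1 fell in C442G/C442G (42.6%), 11 rose and 1 fell in +/C442G (26.5%), 5 rose and 0 fell in +/Y86C (3.37%), and 5 rose and 1 fell in C313X/C313X (23.1%). On NOD 11 rose and 1 fell in -/C313Y (22.7%), 5 rose and 1 fell in Aire-/- (13.3%), and 1 rose and 1 fell in +/C313Y (17.4%).

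Homozygotes were also set against heterozygotes of the same line, a comparison added after seeing the data. In the null line 4 of the 6 genes were called (33.8% of all genes): Dcn rose by 0.93 ± 0.12, and Pdpn, Itgb4 and Ly6a fell by 0.95 ± 0.23, 0.41 ± 0.10 and 0.51 ± 0.14. In the Y86C line 3 were called (39.0% of all genes): Dcn rose by 1.59 ± 0.11, Itga6 by 0.72 ± 0.09, and Ly6a fell by 0.76 ± 0.24, a call lost without heterozygote 3 (adjusted p = 0.068), homozygote 4 (0.122) or homozygote 5 (0.113), with no filter on low counts (0.0561) and with only the compared groups (0.0804). In the C313X line Itga6 alone was called (0.65 ± 0.14, with 17.7% of all genes called), and not without heterozygote 8 (adjusted p = 0.0612) or with scaling by library size alone (0.0762). In the C442G line 3 were called (20.5% of all genes): Dcn rose by 0.48 ± 0.13, Itgb4 by 0.33 ± 0.10, and Ly6a fell by 0.60 ± 0.10. The Itgb4 call was lost with scaling by library size alone (0.26, adjusted p = 0.0546). Pdpn was not called between C442G homozygotes and heterozygotes (-0.00 ± 0.30, adjusted p = 0.998). With scaling by library size alone, Trp63 was called lower in the null line (-0.35, adjusted p = 0.0361) and the Y86C line (-0.48, adjusted p = 0.0342). That scaling lowered the median of all genes by 0.19 in the Y86C line.

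Across the 73 assigned libraries, log2 CPM was centred on the control libraries of each table and correlated between genes, as a description over libraries that share tables and controls. Among 11671 genes, those most like Dcn included Tax1bp1 (r = 0.867) and S100a6 (0.859). Within groups the same pairs were at 0.247 and 0.0533. Itga6 was most like Actn1 (0.837), Adam19 (0.828) and Epb4.1l4b (0.822), with 0.171, 0.379 and 0.262 within groups. Ly6a was most like Irf7 (0.799), Ifitm1 (0.791) and Oas2 (0.786), with 0.393, 0.482 and 0.175 within groups. Itgb4 was most like Krt7 (0.772), Wfikkn2 (0.763) and Htra1 (0.76), with 0.837, 0.81 and 0.702 within groups. Pdpn was most like Lgals1 (0.771), Myl9 (0.742) and Rcn1 (0.739), with 0.596, 0.51 and 0.47 within groups. Trp63 was most like Snai2 (0.701), Picalm (0.676) and Dr1 (0.674), with 0.692, 0.695 and 0.71 within groups. Between members, Dcn and Itga6 had r = 0.781, and 0.0869 within groups. Dcn and Pdpn had r = -0.521, and 0.518 within groups.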

How the data were processed

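The data are 3' tag RNA-seq (MARS-seq) libraries of sorted mTEChi. The authors deposited raw counts per gene, beside normalized signal (counts divided by a factor per library) and log2 values after ComBat batch correction. The raw counts were analysed. No label used here gives the ComBat batches. For the NOD table with ComBat columns, 2 batches were inferred by clustering the ComBat values minus the log2 normalized signal. The number of 2 was set beforehand. The submitters' processing notes name STAR 2.4.2a and HTSeq among the tools, with bcl2fastq, cutadapt and DESeq2 beside them, and build mm10; settings, use of strand and treatment of molecular identifiers are not given in the sources used here, so counts may include amplified copies, and genes overlapping on the opposite strand cannot be told apart.

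CPM is the count scaled by the total count of the library. Each table was fitted with edgeR 4.0.16 (R 4.3.3, limma 3.58.1) by the quasi-likelihood test with TMM factors, a filter on low counts and all groups of the table in 1 fit. p-values were adjusted by Benjamini-Hochberg over all tested genes, at a threshold of 0.05. Log2 changes of single genes are those of the fit and include TMM factors. Median changes of gene lists and correlations used log2 CPM with TMM factors and a prior count of 2. Differences between effects came from joint fits of tables. The procedure was tested on simulated data. Alternatives were DESeq2 1.42.0, other scaling, no filter, a prior count of 0.5, other controls, compared groups only and leaving out each library. Coordinates are from GENCODE for GRCm38.

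The members and gene lists were chosen with earlier results of these data known. Named genes are the 7 members, up to 4 called genes per list and comparison with the largest change, and the 3 genes most like each member, among genes with a mean of at least 5 CPM; 1 of the genes most like Dcn is not reported here. 100 pairs of replicates were compared and 0 were identical. 1 library, titled wild type with an Aire -/- genotype label, was in no comparison. 106 other columns of per-sample values were not used. Each planned comparison of the NOD table with the C313Y and null groups lies within 1 of the inferred ComBat batches. Alternative contrasts with all 8 wild types of that table as control cross these batches.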

Additional observations from a re-analysis of the deposited data

Results flagged for a closer look

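3 of 36 sets of 4 to 6 libraries, 1 per gene and group, held a library far from the others; chance gives about 1 in 20. Trp63 was at 31.7 CPM in C442G homozygote 92, the highest of 6. Itga6 was at 196 CPM in C442G heterozygote 81, the highest of 5. Dcn was at 96.04 CPM in 1 B6 Aire-/- library, the lowest of 4. The effect on Itga6 differed between alleles by a test of the difference in a joint edgeR fit: Y86C/Y86C exceeded Aire-/- by 0.76 (log2, adjusted p = 0.00412) and C442G/C442G exceeded it by 0.70 (adjusted p = 0.00328).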

How the results depend on the processing

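Of the results for single genes, 87 passed the threshold under no setting, and 112 of their 1218 alternative values had the other sign. The number of the 6 genes called moved by over 1.5 times, or to or from 0, in the cases that follow. With scaling by library size alone it was 0, not 1, for C313X/C313X against +/C313X and for the Y86C/Y86C minus Aire-/- difference, 6, not 3, for Y86C/Y86C against +/Y86C, and 2, not 1, for +/C313Y. For +/C313Y it was also 2 by DESeq2 and without both libraries titled C313T. For NOD Aire-/- it was 4 with the compared groups only, 2 with all 8 wild types as control and 2 with the 5 wild types of the C313Y line (chosen after seeing the data), not 0. For the C313X/C313X minus Aire-/- difference DESeq2 called 1, not 0. Leaving out 1 library at a time gave 0 to 2 for C313X/C313X, 0 to 1 for C313X/C313X against +/C313X, 1 to 2 for +/C313Y, 1 to 2 for -/C313Y and 0 to 1 for the C313X difference. It moved by 1 gene, within that limit, to 4, not 3, in B6 Aire-/- with the compared groups only, to 5, not 4, in Y86C/Y86C and C442G/C442G by library size, to 5, not 4, for B6 Aire-/- against Aire+/- by library size or with no filter, to 2 by library size or 4 by DESeq2, not 3, for C442G/C442G against +/C442G, to 2, not 3, for Y86C/Y86C against +/Y86C with no filter or the compared groups only, and to 3, not 2, for -/C313Y with the compared groups only or all 8 wild types. Leaving out 1 library moved it by 1 gene in these comparisons, other than B6 Aire-/- against wild type, and in +/C442G. With 1 library left out, Itgb4 ran from -0.18 to 0.14 in C442G/C442G and from -0.20 to 0.00902 in Y86C/Y86C. It was above 0 only without wild type 86 in C442G/C442G and only without wild type 3 in Y86C/Y86C. Why these counts and values moved was not tested.

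Over all genes, the number called was 1384, not 2402, in +/C313Y with the compared groups only, 4447 or 4408, not 1842, in NOD Aire-/- with 8 or 5 wild types, 43 by DESeq2 or 1 with the compared groups only, not 9, in V303M/V303M, 2 by DESeq2, not 0, in +/V303M, 208 by DESeq2, not 59, for the C313Y difference, 227, not 147, for B6 minus NOD, and 6 by library size or 49 by DESeq2, not 2, for Y86C minus C442G. Leaving out 1 library gave 15 to 82 (61) in Aire+/-, 218 to 461 (448) in +/Y86C, 2072 to 2950 (3147) in C313X/C313X, 1169 to 2138 (2407) in C313X/C313X against +/C313X, 0 to 60 (9) in V303M/V303M and 0 to 1 (0) in +/C313X and +/V303M. For the differences it gave 79 to 264 (291) for Y86C minus null, 162 to 928 (392) for C313X minus null, 217 to 456 (423) for C442G minus null, 0 to 16 (2) for Y86C minus C442G, 95 to 167 (147) for B6 minus NOD and 21 to 143 (59) for C313Y. Scaling by library size raised the share of lower calls from 56.3% to 76.3% in Y86C/Y86C, 54.2% to 74.1% in C442G/C442G and 51.6% to 65.1% in Aire-/-, and shifted the median of all genes by -0.25, -0.20 and -0.11. With the replicate block and only the compared groups, -/C313Y had 3 of the 6 genes called, not 2, with Itgb4 at -0.52 (adjusted p = 0.00225), and 3608 genes called, not 3138. Deviations of same-numbered libraries correlated at 0.0682, -0.0338 and 0.216, and not every library correlated best with its own number. Groups this small cannot show by these values whether same-numbered libraries were paired. Groups of 2 to 6 libraries and the low counts of Pdpn and Trp63 limit what could be detected.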

Other observations

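Dcn lies at the end of a group of small leucine-rich proteoglycan genes on chromosome 10, with Lum at 97565128 to 97572703, Kera at 97606879 to 97613692 and Epyc at 97644068 to 97682454 (GRCm38), a set looked at after its values were seen. Epyc rose in Aire-/- (0.95 ± 0.18, edgeR adjusted p = 1.34e-04), +/Y86C (1.02 ± 0.17), Y86C/Y86C (2.25 ± 0.16, from 39.0 to 155 CPM), C313X/C313X (2.01 ± 0.53), +/C442G (1.82 ± 0.24), C442G/C442G (2.36 ± 0.23, from 36.6 to 166 CPM), NOD Aire-/- (1.20 ± 0.27), +/C313Y (1.45 ± 0.23) and -/C313Y (1.73 ± 0.27). Dcn was called in 6 of these 9 groups. Kera fell in +/C313Y by 2.04 ± 0.65.

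The library titled wild type whose genotype label reads Aire -/- had 63.6 CPM of Dcn, 153 CPM of Itga6, 373 CPM of Itgb4, 369 CPM of Ly6a, 15.9 CPM of Pdpn, 37.8 CPM of Trp63 and 2264 CPM of Aire.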
